A study of Mus musculus with 6 samples.

Results

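Molecular chaperones are the proteins that help others fold, refold, assemble or reach the right compartment. The genes described here were the protein-coding mouse genes of the HSP70, HSP110, HSP90, HSP60/HSP10, small heat shock (Hspb) and DNAJ families, the TRiC/CCT chaperonin and the heat shock factors Hsf1 and Hsf2. They were chosen by symbol alone, through the accession each array probe carries: symbols starting with Hspa, Hspb, Hspd, Hspe, Hsph, Hsp90 or Dnaj, together with Cct2 to Cct8, Tcp1, Hsf1 and Hsf2. That gave 85 genes, of which 84 had a probe, among 23462 gene symbols with a probe on the array. The choice by symbol also takes in Hspb11, an intraflagellar transport protein, Hspbp1, a nucleotide exchange factor of HSP70, and Hspbap1, a protein that binds the small heat shock protein Hspb1.

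The cells were TM3, a line derived from mouse Leydig cells, the testosterone-making cells between the seminiferous tubules, which the labels call a testicular somatic line. Total RNA from 3 samples exposed to 10 µM 4-nitrophenol (PNP, called nPNP in some labels) for 24 h and from 3 samples at 0 µM was hybridised to 1-colour Agilent mouse arrays, 1 sample per array. All 6 came from the same line and carry no other treatment in the labels. PNP is a phenolic breakdown product of organophosphate insecticides and a constituent of diesel exhaust. The labels do not say whether the samples came from separate cultures, so a p-value measures no more than how these samples spread, possibly for technical reasons.

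HSP70 proteins bind exposed hydrophobic stretches in cycles of ATP hydrolysis. DNAJ proteins (HSP40) deliver clients and start the hydrolysis, HSP110 proteins and other exchange factors release the nucleotide, and HSP90 takes over late-folding clients such as steroid receptors and kinases. Small heat shock proteins hold unfolded proteins without ATP, HSP60 with HSP10 folds proteins inside mitochondria, and TRiC/CCT folds actin and tubulin in the cytosol. Under protein-damaging stress Hsf1 binds repeated GAA units in promoters and drives Hspa1a, Hspa1b, Hsph1, Dnajb1 and Hspb1 among others, and the testis adds germ-cell forms of several families.

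The promoters below are shown because they hold the letters that the heat shock factor reads, or head the genes on which the results turn. They come from RefSeq (GRCm38.p6) and run from 250 bases before to 50 bases after the annotated start, 5′ to 3′ on the gene's strand. Capitals mark every match to GAANNTTC or TTCNNGAA, that is, a pair of inverted GAA units, and overlapping matches run together. The pattern reads the same on either strand.
Hspe1 (chr1:55087898-55088197, plus strand): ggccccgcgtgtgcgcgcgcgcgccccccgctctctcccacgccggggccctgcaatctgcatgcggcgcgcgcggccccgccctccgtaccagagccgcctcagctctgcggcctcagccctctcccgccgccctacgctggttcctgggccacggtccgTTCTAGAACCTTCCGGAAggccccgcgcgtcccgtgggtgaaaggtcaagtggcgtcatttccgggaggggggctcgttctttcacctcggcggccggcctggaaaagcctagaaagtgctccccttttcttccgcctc
Hsph1 (chr5:149636266-149636565, minus strand): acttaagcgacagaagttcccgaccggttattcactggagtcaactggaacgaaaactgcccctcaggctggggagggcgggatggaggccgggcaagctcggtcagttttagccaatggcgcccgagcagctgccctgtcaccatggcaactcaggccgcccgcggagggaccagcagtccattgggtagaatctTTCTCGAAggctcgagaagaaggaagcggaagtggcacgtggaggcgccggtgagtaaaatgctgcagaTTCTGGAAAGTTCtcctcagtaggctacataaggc
Dnaja4 (chr9:54699309-54699608, plus strand): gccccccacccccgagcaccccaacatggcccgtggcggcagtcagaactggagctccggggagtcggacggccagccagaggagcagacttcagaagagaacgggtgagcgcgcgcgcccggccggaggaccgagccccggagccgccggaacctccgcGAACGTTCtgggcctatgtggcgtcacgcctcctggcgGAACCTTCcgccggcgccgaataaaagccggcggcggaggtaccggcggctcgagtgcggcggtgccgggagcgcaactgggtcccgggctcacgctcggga
Hspa1b (chr17:34959189-34959488, minus strand): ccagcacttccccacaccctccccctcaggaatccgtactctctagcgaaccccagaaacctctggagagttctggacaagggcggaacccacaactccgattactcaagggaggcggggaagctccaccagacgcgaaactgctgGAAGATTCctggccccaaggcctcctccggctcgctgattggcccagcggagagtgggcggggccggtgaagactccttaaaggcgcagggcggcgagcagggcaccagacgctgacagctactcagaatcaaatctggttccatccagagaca
The Hspe1 and Hspd1 genes stand head to head, so the Hspd1 window (chr1:55087883-55088182, minus strand) holds the same run of matches on the other strand. Of the 85 genes, 69 had such a window, and 19 of them (27.5%) held at least 1 match, against 4587 of 27025 genes (17.0%) in the RefSeq table. A longer form of 3 alternating units, in which matches of both kinds overlap by a shared unit, was searched after these windows had been seen. It was found in 4 of the 69 genes (5.8%), namely Dnajb6, Hspd1, Hspe1 and Hsph1, against 179 of all genes (0.662%). A match describes the letters of a window and does not show a bound site.

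The measure throughout is the scaled log2 signal, the log2 of the processed spot signal minus the 75th percentile of its array, so a difference of 1 is a 2-fold change. A gene is represented by its brightest tested probe, and levels of different probes are not compared. Of the 85 genes, 58 were tested. Another 15 were above background but had too few spots left once the outlier spots marked by the scanner software were dropped, 11 were not above background on all arrays of a group, and Dnajb5 had no named probe. Each family is split in this way in the plot of genes by what the arrays measured.

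**Figure D1:**
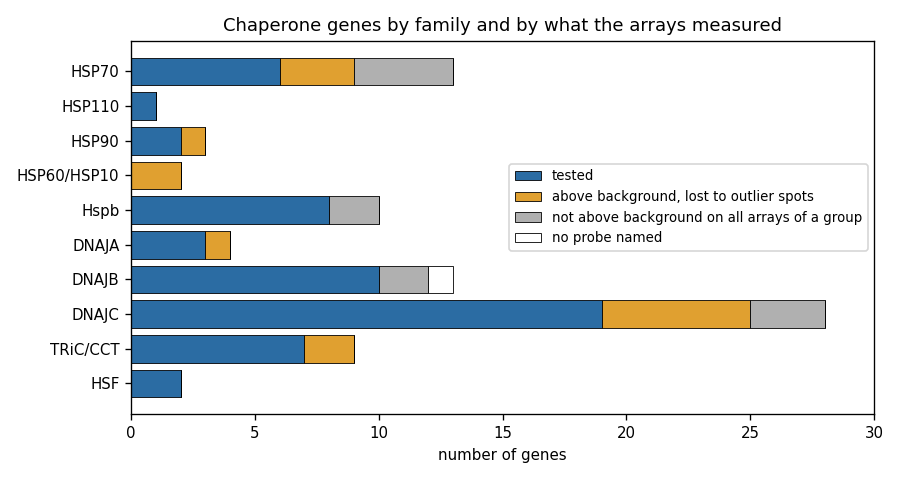
Number of chaperone genes in each family (horizontal axis, genes; 1 bar per family) split by what the arrays measured. Of 85 genes, 58 were tested, 15 were above background but lost to outlier spots, 11 were not above background and 1 had no probe; HSP60/HSP10 had no tested gene.

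No chaperone gene passed the test between PNP and control. Of the 58 tested, 0 passed an adjusted p of 0.05 in limma (Benjamini-Hochberg over 13138 genes; lowest adjusted p 0.740), as did 0% of all genes, whose lowest adjusted p was 0.148. At an unadjusted p of 0.05 there were 4 (6.9%), against 6.52% of all genes tested (5.02% with PNP higher). These were Hspa8, Hspb11, Dnaja4 and Dnajb8, each with its PNP values above its control values. Among genes above background on all 6 arrays, which leaves out Dnaja4, there were 3 of 56 (5.36%), against 6.56% of all genes. PNP and control values did not overlap in 6 genes (10.3%), against 13.4% of all genes: these 4 and Dnajc15 lay above control (9.66% of all genes did), and Hsf1 lay below (3.75%). The difference was above 0 in 37 of 58 (63.8%) and in 62.9% of all genes, and its median was 0.046 for the chaperones and 0.043 for all genes. On each of these counts the chaperones stood near the background. The split by sign moved with the scaling: it was 24 of 58 above 0 with arrays scaled on their median (44.2% of all genes), 31 after quantile normalization (53.7%), 34 after normexp (55.8%) and 21 by the authors' deposited table (53.5%).

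The interval of each difference says how large a change the arrays could have missed. The 95% interval left out a 2-fold change either way in 57 of 58 genes (98.3%, against 97.9% of all genes), the exception being Cct6b. It left out a 1.5-fold change in 49 (84.5%, against 84.4%). The plot of differences shows them with their intervals. Its extremes, Dnajb7 at -0.31 and Dnaja4 at 0.59, are genes that passed the filter through the group in which they are high, and neither is above background on all 6 arrays.

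**Figure D2:**
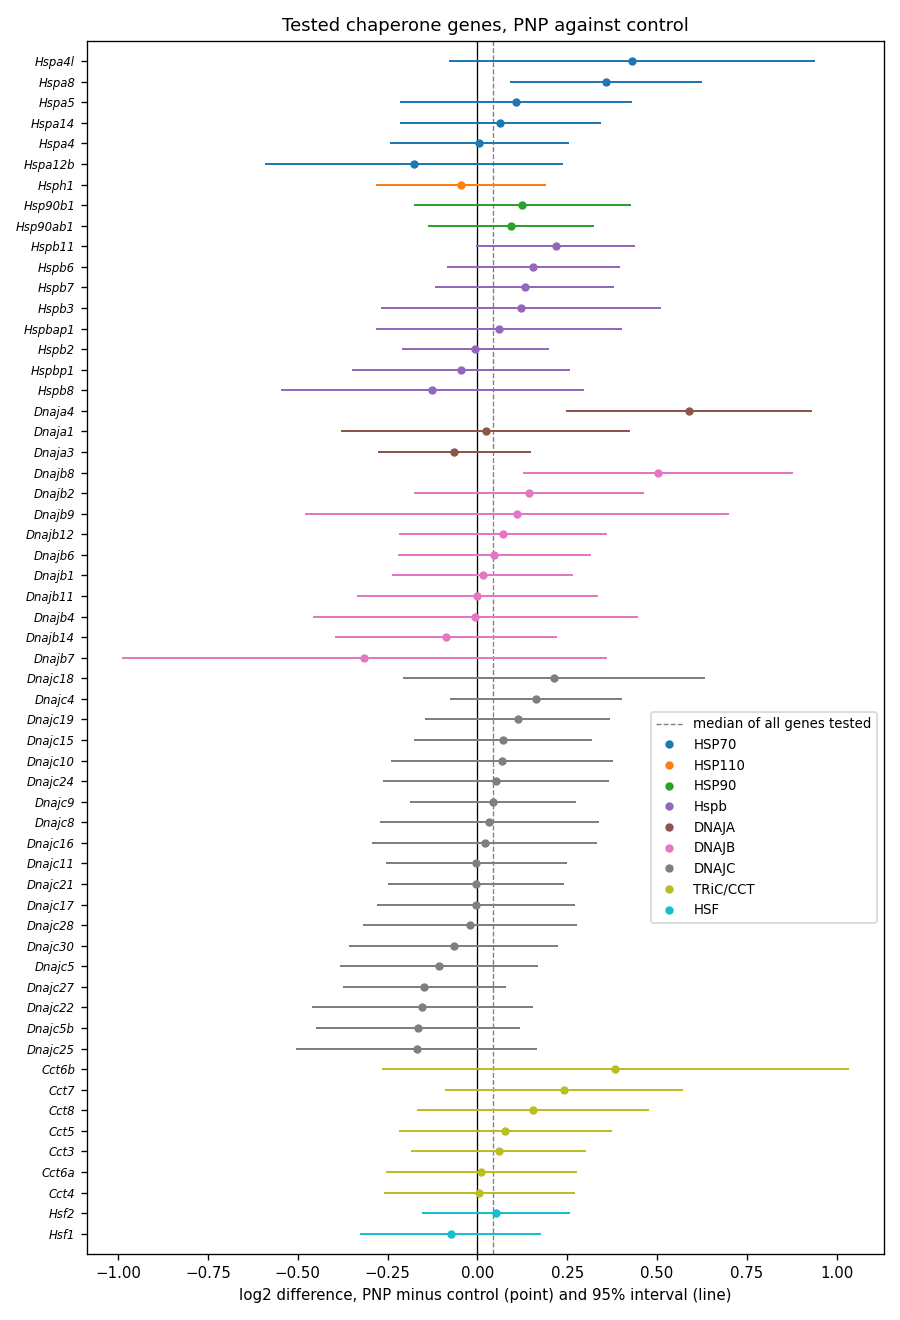
The log2 difference, PNP minus control, of each of the 58 tested chaperone genes (horizontal axis; points) with its 95% interval (lines), grouped and coloured by family; the dashed line is the median of all 13138 genes, 0.043. Intervals of 4 genes (Hspa8, Hspb11, Dnaja4, Dnajb8) lie above 0, and none lies below it; Dnaja4 was above background on 1 control array.

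Among the HSP70 genes, Hspa8 encodes the constitutive cytosolic HSP70 that clears clathrin coats and feeds chaperone-mediated autophagy. Its tested probe of highest signal read 3.50 and 3.61 in PNP samples 1 and 3, against 3.29, 3.18 and 3.12 in the control samples, with the spot of PNP sample 2 left out as an outlier. The groups did not overlap, and the difference was 0.36 (SE 0.11, 95% interval 0.095 to 0.62, n = 2 and 3; limma adjusted p 0.740). The second tested Hspa8 probe differed by 0.096, with 3.17, 2.67 and 2.80 in PNP samples and 2.79, 2.78 and 2.77 in control samples, so only PNP sample 1 stood well above the controls. With the outlier spots kept, the first probe differed by 0.28 and the other 2 probes of the gene by 0.099 and -0.047. The 4 Hspa8 probes thus gave differences of unequal size and sign.

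Hspa5 encodes BiP, the HSP70 of the endoplasmic reticulum and the classical target of its unfolded protein response. It read 2.97, 2.60 and 2.86 in PNP samples, against 2.69 and 2.72 in control samples 1 and 3, with control sample 2 left out. PNP sample 2 lay below both controls, so the groups overlapped, and the difference was 0.11 (SE 0.14). The spot left out read 3.02, above every PNP value; with it kept this probe differed by 0.0010, and the authors' deposited values gave -0.10. Hspa4l, an HSP110-type exchange factor that is abundant in testis, read -0.35, -1.14 and -0.30 in PNP samples, against -0.88, -1.23 and -0.97 in control samples. PNP samples 1 and 3 stood above every control, whereas PNP sample 2 fell among them, and the difference was 0.43 (SE 0.22, adjusted p 0.811). Its other 2 tested probes differed by 0.045 and 0.15. Of the other HSP70 members, Hspa14, a ribosome-associated form, differed by 0.064, and Hspa4, the ubiquitous relative of Hspa4l, by 0.0050. Hspa12b, a distant relative of the family, differed by -0.18 (SE 0.18).

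Hsph1, the stress-inducible HSP110 whose promoter is printed above, read -0.52, -0.34 and -0.60 in PNP samples, against -0.45, -0.48 and -0.39 in control samples. The groups overlapped, with a difference of -0.046 (SE 0.10), and a brighter probe of the gene with too few values differed by 0.11 when outlier spots were kept.

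Hsp90ab1, the constitutive cytosolic HSP90, read 3.77, 3.55 and 3.62 in PNP samples, against 3.59, 3.48 and 3.59 in control samples. PNP sample 2 lay below 2 of the 3 controls, and the difference was 0.093 (SE 0.099, interval -0.14 to 0.32). Its sign depended on the scaling, as quantile normalization gave -0.079 and the authors' deposited normalized values gave -0.061. Hsp90b1 (GRP94), the HSP90 of the endoplasmic reticulum, read 3.51, 3.21 and 3.40 in PNP samples, against 3.29 and 3.20 in control samples 1 and 3, and differed by 0.13 (SE 0.13) with overlapping groups. With the outlier spot of control sample 2 kept (3.59, the highest of the 6) the difference was 0.0098, and the authors' deposited values gave -0.13. The inducible Hsp90aa1 was above background on all 6 arrays but kept too few spots.

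The mitochondrial pair Hspd1 (HSP60) and Hspe1 (HSP10) was lost in the same way. With outlier spots kept, which tested 15046 genes and again called 0 of them (5.93% had an unadjusted p under 0.05), Hspd1 read 3.07, 2.97 and 2.98 in PNP samples, against 2.85, 2.90 and 3.01 in control samples, a difference of 0.087 (SE 0.096). Hspe1 read 3.28, 3.33 and 3.03 in PNP samples, against 3.18, 2.95 and 3.09 in control samples, a difference of 0.14 (SE 0.12). The groups overlapped for these probes, the brightest of each gene. Another Hspe1 probe read 3.05, 3.25 and 3.11 in PNP samples, against 2.95, 2.77 and 2.94 in control samples, without overlap and differing by 0.25, whereas the second Hspd1 probe differed by -0.084.

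Of the 10 Hspb symbols, 8 were tested, 5 with a difference above 0 and 3 below. Hspb11 read 2.74, 2.54 and 2.60 in PNP samples, against 2.42, 2.39 and 2.42 in control samples, so all 3 PNP values lay above all 3 controls. The difference was 0.22 (SE 0.094, interval 0.00020 to 0.43, unadjusted p 0.0499, adjusted p 0.766), and it was 0.078 after normexp background correction. Among the true small heat shock proteins, Hspb6 (HSP20) read 1.08, 0.79 and 0.95 in PNP samples, against 0.79, 0.80 and 0.76 in control samples, with PNP sample 2 inside the control range and a difference of 0.16 (SE 0.10). Hspb8, which works with Bag3 in selective autophagy, read -2.91, -3.58 and -2.89 in PNP samples, against -3.09, -2.93 and -2.98 in control samples, with PNP sample 2 the lowest of all 6 and a difference of -0.13 (SE 0.18). The muscle-associated Hspb7, Hspb3 and Hspb2 differed by 0.13, 0.12 and -0.0053, Hspbap1 by 0.061 and Hspbp1 by -0.046.

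In the DNAJA family, Dnaja4 read -4.82, -5.08 and -4.63 in PNP samples, against -5.59, -5.21 and -5.49 in control samples. All 3 PNP values lay above all 3 controls, a difference of 0.59. The probe is dim: it was above background on 3 PNP arrays and 1 control array, so it entered the test through the group in which it is high, and this difference is given as a description only. The lowest signal above background lay between -5.49 and -5.33 on PNP arrays and between -5.66 and -5.49 on control arrays. After normexp the difference was 0.11, and the gene's other probe was above background on no array. Dnaja1, a farnesylated cytosolic co-chaperone, differed by 0.023, and Dnaja3, its mitochondrial relative, by -0.065. Both values come from dim probes, because the far brighter probe of each gene kept too few values. With outlier spots kept, those brighter probes differed by 0.095 for Dnaja1 and 0.041 for Dnaja3. Dnaja2 was tested only with outlier spots kept, where it read 1.91, 1.41 and 1.87 in PNP samples, against 2.04, 2.09 and 1.97 in control samples; all 3 PNP values lay below the controls, at -0.30 (SE 0.14, adjusted p 0.846).

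In the DNAJB family, Dnajb1 is the textbook heat-inducible HSP40. It read 2.37, 2.49 and 2.23 in PNP samples, against 2.45, 2.34 and 2.25 in control samples, so the groups overlapped and the difference was 0.015 (SE 0.11). Dnajb8, a testis-enriched form known to suppress protein aggregation, read -4.80, -4.68 and -4.16 in PNP samples, against -5.08, -5.02 and -5.06 in control samples. PNP sample 3 stood highest and no value overlapped, with a difference of 0.50 (SE 0.16, interval 0.13 to 0.88, limma unadjusted p 0.014, adjusted p 0.740), or 0.29 after normexp. This probe is dim too, although above background on all 6 arrays. The lowest signal above background lay between -5.49 and -5.33 on PNP arrays and between -5.66 and -5.49 on control arrays. With dim probes kept, the median difference of all genes was 0.099, against 0.043 in the main fit. Dnajb7, also testis-enriched, read -5.61, -4.52 and -4.59 in PNP samples, against -4.43, -4.97 and -4.38 in control samples, with PNP sample 1 the lowest of the 6 and a difference of -0.31 (SE 0.29). Dnajb7 was above background on 2 PNP arrays and 3 control arrays.

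The other DNAJB members had overlapping groups for the probe that represents each gene. Dnajb9, the ERdj4 of the unfolded protein response, differed by 0.11 (SE 0.24), and its relative Dnajb11 (ERdj3) by -0.00040. Both rest on 2 values per group, because a brighter probe of each gene kept too few values. With outlier spots kept, those brighter probes differed by -0.10 for Dnajb9 and -0.10 for Dnajb11. The neuronal co-chaperone Dnajb2 differed by 0.14, Dnajb6, which hinders polyglutamine aggregation, by 0.047, and Dnajb4 by -0.0059. All 3 tested Dnajb6 probes lay above 0, but further probes, with outlier spots kept, differed by -0.31 and -0.18. The former read 0.58, 0.63 and 0.40 in PNP samples, all below the 0.74, 0.93 and 0.87 of control samples. Dnajb12 and Dnajb14, partners in the membrane of the endoplasmic reticulum, differed by 0.070 and -0.088.

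DNAJC is the largest family, in which the J domain sits in otherwise unrelated proteins. Of 28 genes 19 were tested, 9 with a difference above 0 and 10 below, and 7 of 19 lay above the median of all genes. The 3 lowest p-values above 0 belonged to Dnajc4 (0.16), Dnajc18 (0.21) and Dnajc19 (0.11), a part of the mitochondrial import motor. Dnajc18 read 0.94, 0.27 and 0.95 in PNP samples, against 0.54, 0.42 and 0.57 in control samples, with PNP sample 2 below every control and the other PNP samples above them. The 3 lowest below 0 belonged to Dnajc27 (-0.15), Dnajc5b (-0.16), a relative of the synaptic cysteine-string protein, and Dnajc25 (-0.17). Dnajc15, a second import-motor protein, read 2.251 and 2.182 in PNP samples 1 and 3, against 2.178, 2.166 and 2.092 in control samples. Its groups did not overlap, and the difference was 0.071 (SE 0.10). With the outlier spot of PNP sample 2 kept (2.11) the groups overlapped and the difference was 0.036.

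All 7 tested TRiC/CCT genes had a difference above 0, from 0.0056 for Cct4 to 0.38 for Cct6b, but 3 of 7 did with arrays scaled on their median or in the authors' deposited normalized values, and 5 of 7 after quantile normalization or normexp. Of the 7, 5 lay above the median of all genes. Cct7 read 3.73, 3.67 and 3.357 in PNP samples, against 3.360 and 3.327 in control samples 2 and 3, so PNP sample 3 fell between the controls while PNP samples 1 and 2 stood higher. Its difference was 0.24 (SE 0.14), which became 0.029 after quantile normalization; the authors' deposited values gave -0.052. The spot of control sample 1 left out as an outlier read 3.78, above every PNP value, and with it kept the difference was 0.097. Cct6b, the testis form of the zeta subunit, read -3.09, -4.13 and -3.12 in PNP samples, against -3.88, -3.52 and -4.10 in control samples, with PNP sample 2 the lowest of all 6 (SE 0.28). Its ubiquitous counterpart Cct6a differed by 0.011, or by -0.17 after normexp. A brighter Cct6a probe kept too few values. With outlier spots kept it read 2.465, 2.36 and 2.48 in PNP samples, against 2.30, 2.20 and 2.34 in control samples. Those groups did not overlap, and the difference was 0.16 (SE 0.095). The subunits Cct8, Cct5 and Cct3 differed by 0.15, 0.077 and 0.059, with overlapping groups for the brightest probe of each. Other probes varied: a second tested Cct5 probe did not overlap, with 3.17 and 3.09 in PNP samples 1 and 3, against 2.90 and 2.98 in control samples 2 and 3 (0.20). A Cct3 probe with outlier spots kept lay below control throughout, with 1.60, 1.64 and 1.67 in PNP samples, against 2.02, 1.91 and 1.90 in control samples (-0.31).

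Hsf1, the main heat shock factor, read -0.169 and -0.1425 in PNP samples 2 and 3, against -0.137, -0.0052 and -0.102 in control samples. Both PNP values lay just below the lowest control, with a difference of -0.074 (SE 0.11), well inside its error. Hsf2, which acts in development and spermatogenesis, differed by 0.051 (SE 0.088).

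**Figure D3:**
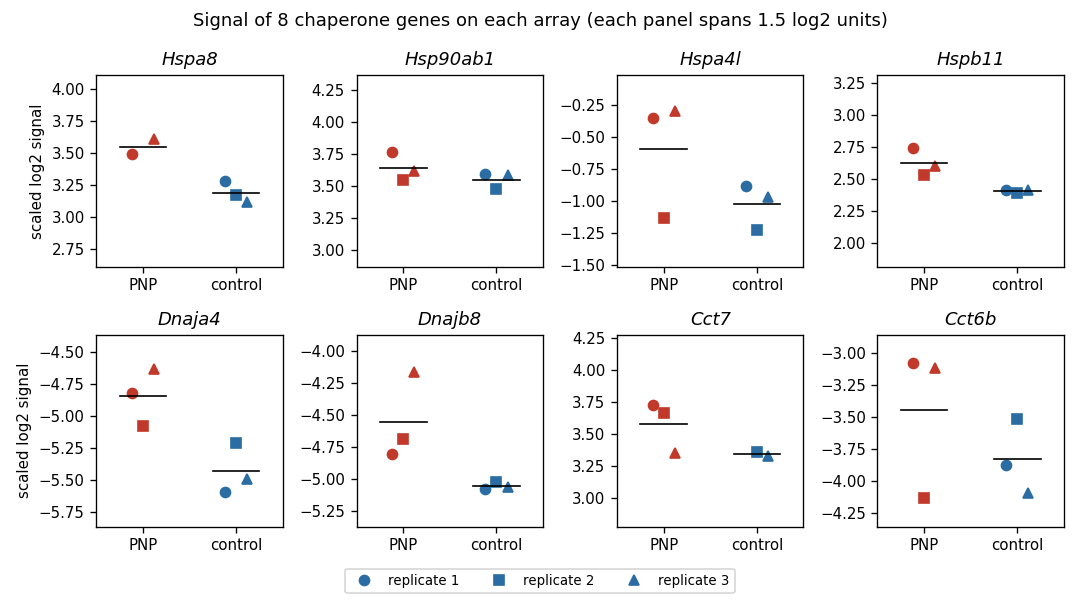
Scaled log2 signal of 8 chaperone genes on each array (vertical axis, each panel spanning 1.5 units), PNP samples in red at the left and control samples in blue at the right, with the replicate number by symbol and the group mean as a line. PNP values lie above all control values for Hspa8, Hspb11, Dnaja4 and Dnajb8; in Hspa4l and Cct6b the square, PNP sample 2, lies apart from the other PNP samples.

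In Hspa4l, Cct6b, Hspb8 and Dnajc18, PNP sample 2 lay well below PNP samples 1 and 3. It was hybridised in an odd column of the slide with control samples 1 and 3, whereas PNP samples 1 and 3 shared the even columns with control sample 2. Within odd columns Hspa4l differed by -0.21 and Cct6b by -0.15, against 0.90 and 0.42 within even columns. Dnajb8 differed by 0.39 and 0.54 within odd and even columns and Hspb11 by 0.12 and 0.28, while Hspa8 had a value within even columns only, 0.37. Dnaja4 differed by 0.47 and 0.48, as a description only, since it was above background on 1 control array. Every odd-column value rests on 1 PNP sample and every even-column value on 1 control sample. Without PNP sample 2, 11 of 58 chaperone genes (19%) had an unadjusted limma p under 0.05, against 13.3% of all genes. None of them passed the adjusted threshold (lowest 0.152, Hspa4l). PNP sample 2 was singled out by its low values in some of these genes, so this count is a description only. The 11 include Dnaja4, which passed the filter through the PNP group. Without PNP sample 2 the difference was above 0 in 63.8% of the 58 and in 64.8% of all genes. Slide position also differed between the groups by row, since the 3 controls and PNP sample 1 lay in row 1 and the other PNP samples in row 2. Row 2 held no control, so with row as a block these differences rest on row 1 alone, PNP sample 1 against the 3 controls. They were 0.25 for Dnajb8 and 0.33 for Hspb11.

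Genes were also grouped by role or compartment, in groups drawn up with the values known. Of 12 textbook stress-inducible genes, 5 were tested (Hspa5, Hsp90b1, Hsph1, Dnajb1 and Dnajb9), with 4 above 0 and a median of 0.11 (62.9% and 0.043 over all genes) and 0 called. In the authors' deposited values all 5 lay below 0, from -0.13 for Hsp90b1 to -0.013 for Dnajb9. Hspa1a, Hspa1b and Hspb1, strongly heat-inducible genes, were above background on none of the 6 arrays, so no fold is stated. Each of their promoters holds a match to the heat shock letters. Hspa1a and Hspa1b are near-identical copies, so a probe may read both. Of 8 genes of the endoplasmic reticulum, 5 were tested with a median of 0.11 (0.043 over all genes). Of 8 mitochondrial genes, 5 were tested with a median of -0.0037. The median of 0.11, here as in the inducible group, is the Hspa5 value. That value was 0.0010 with its outlier spot kept and -0.10 in the authors' deposited values. Across promoters, the 12 tested genes with a match had 8 differences above 0 and a median of 0.035, and the 35 without had 25 above 0 and a median of 0.059.

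Other members were also not well above background on all arrays of a group. Besides the 3 just named, Hspa1l, Dnajb3, Dnajb13, Dnajc5g, Dnajc6 and Dnajc12 were above background on no array, and Hspa12a and Hspb9 on 2 PNP and 2 control arrays each. The 15 genes lost to outlier spots made up 20.5% of the 73 above background, against 12.7% of all genes, and PNP arrays lacked 124 of 381 values of the 127 chaperone probes above background (32.5%), against 90 of 381 (23.6%) on control arrays. This gap was not confined to chaperones: outlier spots of all genes numbered 6844 to 7809 on each PNP array and 3872 to 5377 on each control array. With those spots kept, 10 of the 15 had a difference above 0, against 896 of the 1908 genes lost in the whole table, and none was called. Besides those given above, Cct2 differed by 0.21, Tcp1 by 0.031, Hspa9 (mortalin, the mitochondrial HSP70) by 0.084, Hsp90aa1 by 0.14, Hspa2, the HSP70 of spermatocytes, by 0.0013, and Hspa13 by -0.14. The DNAJC members of this group were Dnajc7 (0.11), Dnajc3 (0.073), Dnajc1 (0.044), Dnajc2 (-0.098), Dnajc13 (-0.14) and Dnajc14 (-0.25). A second probe had the opposite sign for Hsp90aa1 (-0.075) and Dnajc13 (0.16), and the same sign for Hspa9 (0.18) and Dnajc7 (0.040).

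For 18 chaperone genes more than 1 probe was tested, 42 in all; the probes had the same sign in 12 genes and differed in sign in 6. The range between probes of a gene had a median of 0.18 and reached 0.39.

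Relative to all genes, the median difference was 0.043 for HSP70, 0.035 for TRiC/CCT and 0.066 for HSP90, and the authors' deposited values gave -0.048, -0.012 and -0.10 for these; quantile normalization also turned HSP90, to -0.029. It was 0.049 for Hspb (-0.014 after normexp) and -0.020 for DNAJA (0.0063 after normexp, 0.033 with outlier spots kept). For DNAJB it was -0.011 (0.019 after quantile normalization, 0.018 after normexp and 0.00060 with arrays scaled on their median). It was -0.046 for DNAJC and -0.054 for the heat shock factors, below 0 under each scaling run. On single arrays, over genes measured on all 6 (14 of 19 for DNAJC), DNAJC was at 0.0014, -0.085 and -0.051 in PNP samples. In control samples it was at 0.025, 0.042 and 0.0035. It was the only family in which the groups did not overlap, with PNP sample 1 just below control sample 3. Among all single genes 13.4% did not overlap.

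**Figure D4:**
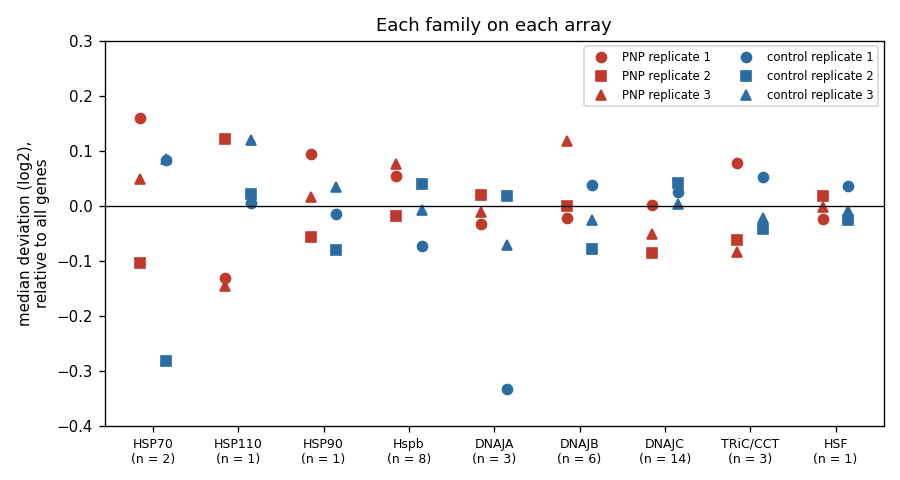
Median deviation of each chaperone family on each array (vertical axis, log2, from each gene's mean over the 6 arrays and relative to all genes), PNP samples in red left of control samples in blue, over the n genes of the family measured on all 6 arrays. Groups overlap in every family shown but DNAJC, where the highest PNP sample (0.0014) lies just below the lowest control sample (0.0035).

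Co-chaperones and other folding factors outside the choice by symbol were described from a list drawn up by function. It was drawn up with earlier results of these data known, so its shares are a description only. In a list of 45 (exchange factors, HSP90 partners, prefoldins and the like), 33 were tested, 29 with a difference above 0 (87.9%, against 62.9% of all genes) and 4 below, 0 were called, and 1 had an unadjusted p under 0.05 (6.52% of all genes did). Their median was 0.074, and 24 of 33 (72.7%) lay above the median of all genes, against 20 to 23 of 33 under the 4 other scalings and 13 of 34 with dim probes kept. Under those scalings 20 to 24 lay above 0. Groups did not overlap in 7, all with PNP above (21.2%, against 9.66% of all genes). The 3 lowest p-values above 0 belonged to Hsf4 (0.26, SE 0.096, unadjusted p 0.026), a heat shock factor of the lens, Clpb (0.20), a mitochondrial disaggregase, and Stub1 (0.22), the ubiquitin ligase CHIP that tags chaperone clients. The 3 lowest p-values below 0 belonged to Bag2 (-0.16) and Bag5 (-0.042), BAG-domain partners of HSP70, and Cdc37l1 (-0.022), an HSP90 partner. Hsf4 read -1.82, -1.95 and -1.90 in PNP samples, against -2.05, -2.17 and -2.24 in control samples, with every PNP value above the controls.

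Of Leydig cell markers, the steroidogenic genes Star and Cyp17a1 and the regulator Nr5a1 were tested, whereas Cyp11a1 and Lhcgr were above background on no array and Hsd3b1 on 1 control array. The summed linear scaled signal of the list was 0.361 to 0.448 in PNP samples and 0.360 to 0.375 in control samples. For Sertoli cell, germ cell and macrophage lists the summed ranges also overlapped between groups. Among single markers, Sox9 and Dmrt1 of Sertoli cells (0.24 each), Prm2 of germ cells (0.27) and Nr5a1 (0.22) had all PNP values above control. This held for 9.66% of all genes. For Sox9 the limma unadjusted p was 0.038 and the adjusted p 0.740. The other tested markers had overlapping groups: Star (-0.33), Tnp1 of germ cells (-0.67), Cyp17a1 (0.21), and Cd68 (0.32) and Csf1r (0.12) of macrophages. Tnp1 and Cyp17a1 were above background on 2 PNP arrays and 3 control arrays. Of the other Sertoli and germ cell markers, Amh, Fshr, Prm1 and Acrv1 were above background on no array, and Dazl on 1 PNP array. Wt1 of Sertoli cells and Ddx4 of germ cells were above background on 3 PNP and 3 control arrays but were not tested. The part of all these markers in the results above was not tested. Ptprc and Adgre1, which mark leukocytes and macrophages, were above background on no array. In such bulk RNA, fewer cells of a type and less RNA per cell cannot be told apart. Across arrays, 59.9% to 62.6% of spots were above background on PNP arrays and 61.8% to 62.3% on control arrays. No spot was saturated.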

How the data were processed

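The members and lists were chosen with earlier results of these data known. Per the file headers, the deposited scanner files hold intensity values written by Agilent Feature Extraction 11.5.1.1; version 10.7 is the one in the submitters' processing notes. The processed signal is background-subtracted and detrended within the array, with low values set to a surrogate, per the file headers. The labels name Cy3, but the files hold red columns, so the dye is unsettled. The authors' deposited table of log2 values is uncentred, with column medians of 8.27, and the steps behind it are not given in the sources used here.

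Signals were computed as log2 of the processed signal minus the array's 75th percentile over non-control spots. Outlier spots were left out, repeat spots were averaged, and testing required a probe to be above background on all 3 arrays of a group and to keep 2 or more values in each group. Outlier spots removed 6114 of 33336 probes above background. Accessions were named through RefSeq (GRCm38.p6): 33767 of 56605 probes. The test was limma's lmFit and eBayes (limma 3.58.1, R 4.3.3), PNP minus control, two-sided, without covariates, adjusted over 13138 genes by Benjamini-Hochberg at 0.05. The procedure was tested on simulated data.

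Named were Hspa8, Hsp90ab1, the textbook inducible genes, every tested member of families with at most 10 tested, the 3 of smallest p each way in DNAJC and among co-chaperones, and all untested members. Dnajc15 was named after its values were seen. Alternatives were other scalings and filters, normexp on the median and local background signals with an offset of 50 (in place of the mean signal planned), the replicate, slide column or slide row as a block, and each sample left out. The number of arrays limits precision: the median half-width of a 95% interval was 0.28.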

Additional observations from a re-analysis of the deposited data

How the results depend on the processing

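No chaperone gene was called in the main fit or under any alternative with a test, and over all genes 0 were called except 1 with the slide column as a block; leaving out each sample gave 0 to 1. The chaperone genes at an unadjusted limma p under 0.05 numbered 2 under quantile normalization, normexp, the authors' deposited normalized values and outlier spots kept. They numbered 2 to 11 with each sample left out (11 without PNP replicate 2). Over all genes there were 344 without control replicate 3, 1745 without PNP replicate 2 and 1303 with dim probes kept. Family medians relative to all genes moved by more than the spread between replicates as follows. For HSP90 (2 genes) they were -0.029 after quantile normalization, -0.10 in the authors' values, -0.0087 with slide column and 0.15 with slide row as a block. They were -0.052 within odd and 0.14 within even slide columns, the latter from Hsp90ab1 alone. For the heat shock factors they were -0.016 after quantile normalization, -0.11 with dim probes kept, -0.092 with slide row as a block, -0.021 within odd and -0.10 within even columns, and -0.069 to -0.026 with a sample left out. Normexp gave -0.014 for Hspb, which was -0.025 within even columns and -0.029 to 0.088 with a sample left out. All chaperones gave -0.043 in the authors' values, -0.048 with dim probes kept and -0.051 within odd columns; DNAJC gave -0.091 with dim probes kept. Hsph1 gave 0.077 with outlier spots kept and 0.073 within odd columns. DNAJA gave 0.23 within odd columns and -0.084 to 0.19 with a sample left out, DNAJB -0.13 and 0.079 within odd and even columns, and TRiC/CCT 0.13 within even columns and 0.017 to 0.11 with a sample left out. The cause of these shifts was not tested. Values with slide row as a block rest on PNP sample 1 against the controls wherever that sample has a value. Of 190 family medians recomputed, 162 moved by less than that spread. The spread was taken over genes measured on all 6 arrays only. These were 2 of the 6 tested HSP70 genes (spread 0.18) and 1 gene each for HSP110, HSP90 and the heat shock factors (0.027 for the factors). For these families it is a weak yardstick for the medians. Among the named genes the sign changed in 0 to 16 per alternative. Whether replicate numbers pair the samples is not settled here. The deviations of same-numbered samples correlated at -0.31, -0.22 and -0.026. These values cannot decide it, since each such pair was split between an odd and an even slide column. With a replicate block 0 genes were called, and the chaperone median relative to all genes was 0.0026. With that block 3 chaperone genes (5.17%) had an unadjusted limma p under 0.05, against 4.6% of all genes. Slide column alternatives and counts at an unadjusted p were chosen after seeing the data.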
